A study of Mus musculus with 4 samples.

Results

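The genes described here are 10 receptors and ligands that add to, or restrain, the signal a T cell gets through its antigen receptor: Ctla4, Cd28, Icos, Lag3, Havcr2, Tigit, Cd160, Cd226, Cd274 and Pdcd1lg2. Every probe set that the platform annotation assigns to one of these symbols was taken, which gave 15 of the 45101 probe sets on the array and covered 9 of the 10 genes. Tigit has no single-gene probe set in that annotation and was not analysed here. Of the 15 probe sets, 12 had a signal above the floor on at least 1 array, where the floor of 12.1 is the median of all non-control signals over the 4 arrays.

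The study measured 4 cultured and sorted populations of CD4 T cells from spleen and lymph nodes of C57BL/6 mice aged 8 to 10 weeks, with 1 Affymetrix array for each. Th0 and Th17 cells were grown from naive CD4 T cells, in Th0 and in Th17 conditions. The populations called exFoxp3Th17 and Treg were grown from CD4 T cells that already expressed Foxp3, in Th17 conditions and with IL-2. Sorting after culture used GFP for IL-17 and an APC signal for Foxp3: Th0 cells were negative for both, Th17 and exFoxp3Th17 cells carried only IL-17, and Treg cells carried only Foxp3. The labels name no further treatment, and they do not give the number of animals behind an array. No spread between samples can be given, so each difference below is one between 2 arrays, and whether it would recur in other cultures was not tested.

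CD28 on a T cell binds CD80 and CD86 on antigen-presenting cells and sustains activation and IL-2 production. CTLA-4 binds the same ligands with higher affinity and restrains activation, and regulatory T cells carry it constitutively. ICOS, a relative of CD28 that binds ICOS ligand, appears after activation and supports follicular helper, Th17 and regulatory T cells. LAG-3, TIM-3 (the product of Havcr2) and CD160 are receptors found on activated or exhausted T cells, and CD226 and TIGIT compete for CD155 with opposite effects. PD-L1 (Cd274) and PD-L2 (Pdcd1lg2) are the ligands of PD-1, known mainly from antigen-presenting cells but also present on activated T cells.

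The labelled populations were first set against their own markers. Foxp3 had a signal of 584.9 in Treg and was below the floor on the other 3 arrays (4.3 to 8.0), while Il17a was below the floor on all 4 arrays (7.1 to 9.8). All 9 measured CD4 T cell identity genes were above the floor on every array. The exFoxp3Th17 array stood apart in sex-linked transcripts, with Xist at 3766 against 7.4 to 10.8 on the other arrays and the Y-linked Eif2s3y at 4.7 against 654.5 to 875.8, so every comparison with it crosses that difference as well and their parts in a result cannot be told apart. Among markers of other cells, the B cell genes Cd79a, Ms4a1 and Pax5 were below the floor on all 4 arrays, and the 6 measured B cell markers summed to 34.0 in Th0 and 31.4 in Th17, and 51.6 in exFoxp3Th17 and 83.7 in Treg. None of these 6 was above the floor in Th0 or Th17, 2 were in exFoxp3Th17 (Cd79b at 19.3 and Cd22 at 15.5) and 1 was in Treg (Cd79b at 55.6). The summed signal of 11 myeloid and dendritic cell markers was 134 in Th0 and 74.5 in Th17, and 56.5 in exFoxp3Th17 and 72.5 in Treg, with 4, 2, 1 and 2 of the 11 above the floor and Itgam, Flt3 and Lyz2 below it throughout. That of 7 measured CD8 T cell and NK cell markers was 105 in Th0 and 157 in Th17, and 99.0 in exFoxp3Th17 and 251 in Treg, with 1, 4, 2 and 5 of the 7 above the floor. Cd8b1 was above the floor on every array, at 64.6 in Th0 and 83.5 in Th17, and 64.9 in exFoxp3Th17 and 51.7 in Treg. On the same arrays in the same order, Cd8a read 11.1, 13.5, 11.6 and 14.3, and Cd4 read 109.6, 81.2, 98.1 and 48.3.

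A gene is called higher or lower when 2 arrays differ by 2-fold or more and the higher one lies above the floor. Values below the floor are set to it first, so a fold against such a value is a lower bound. By this rule 5 of the 9 measured members (Ctla4, Icos, Lag3, Havcr2 and Pdcd1lg2) were called in at least 1 of 4 comparisons, and 4 (Cd28, Cd160, Cd226 and Cd274) in none. Ctla4, Icos and Pdcd1lg2 were all lowest, or tied for lowest, in Th0 and higher in Treg and Th17. They differed in exFoxp3Th17, where Ctla4 stood at the Th17 level and Pdcd1lg2 at the Th0 level. Icos there lay between Th0 and Th17, within 2-fold of Th0 on every probe set and within 2-fold of Th17 on the brightest. In bulk RNA, fewer cells that express a gene and less RNA per cell cannot be told apart.

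**Figure D1:**
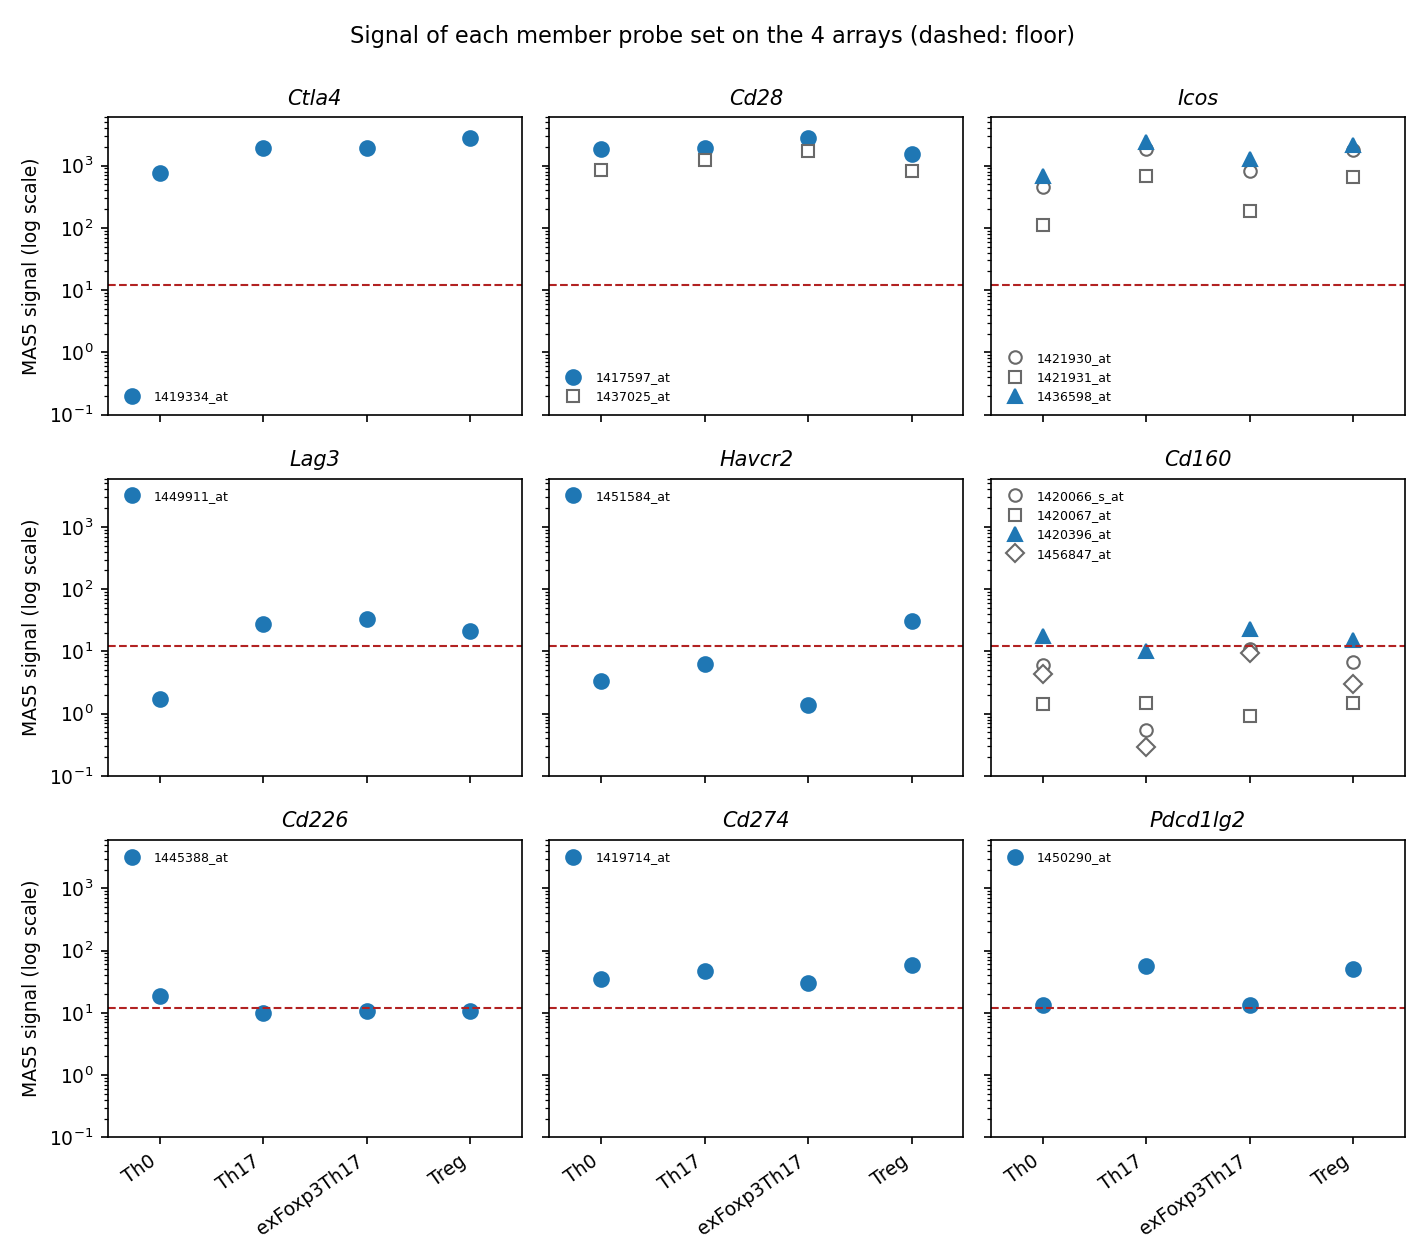
MAS5 signal (log scale) of the 15 member probe sets on the Th0, Th17, exFoxp3Th17 and Treg arrays, 1 panel per gene; the filled symbol is the brightest probe set of the gene, open symbols are its other probe sets, and the dashed line is the floor of 12.1. Ctla4, Cd28 and Icos lie far above the floor on all 4 arrays, whereas Lag3, Havcr2, Cd160 and Cd226 lie near or below it.

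Ctla4 was measured by a single probe set (1419334_at), with a signal of 755.3 in Th0 and 1943 in Th17, and 1914 in exFoxp3Th17 and 2789 in Treg. Th0 was the low array and Treg the high one. The Th17 signal was 2.57-fold higher than that of Th0, and the Treg signal was 3.69-fold higher. Between the Th17 populations of different origin the fold was 1.02, the smallest separation of any pair of arrays for this gene. exFoxp3Th17, sorted as Foxp3 negative, had a Ctla4 signal 1.46-fold below that of Treg, which is within 2-fold, and 2.53-fold above that of Th0. In order, Th0 was separated from the other 3 arrays by more than 2-fold, and those 3 were not separated from each other.

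The stretch upstream of Ctla4 is shown because Ctla4 was called in both comparisons with Th0 at signals far above the floor. It covers the 250 bases before the transcription start in build GRCm38.p6, chr1:60908775-60909024 on the plus strand, printed 5′ to 3′ with capitals marking a match to the NFAT core GGAAA or its reverse complement TTTCC.
Ctla4: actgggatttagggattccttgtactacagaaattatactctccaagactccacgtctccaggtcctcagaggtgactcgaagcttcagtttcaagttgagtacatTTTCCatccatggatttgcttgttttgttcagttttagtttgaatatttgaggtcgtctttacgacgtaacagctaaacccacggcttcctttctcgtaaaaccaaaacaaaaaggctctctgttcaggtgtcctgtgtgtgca
The only match began 144 bases upstream of the start, on the minus strand. The AP-1 motif TGANTCA, a palindrome, had no match in this window. Of 32851 promoter windows of this length, 55.6% hold the NFAT core and 6.75% the AP-1 motif on either strand, so a single NFAT core match is common. NFAT and AP-1 are transcription factors activated through the T cell receptor and CD28, and a match of letters is not a site of binding.

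Icos was measured by 3 probe sets, which gave the same order of arrays: Th0 lowest, then exFoxp3Th17, Treg and Th17. The brightest (1436598_at) had signals of 670.7 in Th0 and 2359 in Th17, and 1262 in exFoxp3Th17 and 2139 in Treg. The next (1421930_at) read 456.4 in Th0 and 1862 in Th17, and 814.0 in exFoxp3Th17 and 1768 in Treg. The dimmest (1421931_at) read 110.3, 685.2, 187.6 and 660.0 on the same arrays in the same order. Treg and Th17 were thus high and nearly equal, within 1.10-fold of each other on every probe set, and exFoxp3Th17 lay between them and Th0. The exFoxp3Th17 signal was 1.88-fold above Th0 on the brightest probe set, 1.78-fold on the next and 1.70-fold on the dimmest. These arrays were therefore not separated by 2-fold on any probe set.

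The size of the Icos difference depended on the probe set. Th17 was 3.52-fold higher than Th0 on the brightest probe set, 4.08-fold on the next and 6.21-fold on the dimmest, and Treg was 3.19-fold, 3.87-fold and 5.98-fold higher than Th0. exFoxp3Th17 was 1.87-fold lower than Th17 on the brightest, which falls short of the threshold, but 2.29-fold and 3.65-fold lower on the other 2. Against Treg it was 1.69-fold lower on the brightest and 2.17-fold and 3.52-fold lower on the others. Averaging the 3 probe sets called Icos lower in exFoxp3Th17 in both comparisons, with log2 ratios of -1.32 against Th17 and -1.23 against Treg. Among genes whose brightest probe set was within 2-fold between exFoxp3Th17 and Th17 and that had a further probe set above the floor, 9.54% (431 of 4516) likewise had another probe set past 2-fold in the same direction.

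Cd28, which lies next to Ctla4 and Icos in the genome in the order Cd28, Ctla4, Icos, did not follow either neighbour. Its brighter probe set (1417597_at) read 1827 in Th0 and 1920 in Th17, and 2830 in exFoxp3Th17 and 1564 in Treg. The other (1437025_at) read 859.8 in Th0 and 1213 in Th17, and 1723 in exFoxp3Th17 and 823.9 in Treg. Both put exFoxp3Th17 highest and Treg lowest. The brighter probe set stayed within 2-fold throughout (at most 1.81-fold, exFoxp3Th17 over Treg), and the other reached 2.09-fold over Treg and 2.00-fold over Th0. On the array where Icos was below its Th17 and Treg levels, Cd28 therefore had its highest signal, and the Ctla4 signal was close to that of Th17.

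Pdcd1lg2 was the member with a call in all 4 comparisons. Its single probe set (1450290_at) read 13.3 in Th0 and 55.6 in Th17, and 13.3 in exFoxp3Th17 and 49.9 in Treg. The arrays fell into a low pair (Th0 and exFoxp3Th17, just above the floor) and a high pair (Th17 and Treg), with folds of 1.00 and 1.11 inside the pairs. Th17 was 4.17-fold higher than Th0 and Treg 3.74-fold higher. exFoxp3Th17 was 4.18-fold lower than Th17 and 3.75-fold lower than Treg. Because the low pair lies so near the floor, the size of these differences depends on it. With 2 times the floor the log2 ratios were 1.20 for Th17 and 1.04 for Treg against Th0, and -1.20 against Th17 and -1.04 against Treg for exFoxp3Th17, still past 2-fold. With the floor added as a pseudocount they were 1.41, 1.29, -1.41 and -1.29. The signal is low even on the high arrays, and no other probe set measures the gene. The myeloid marker sum was highest in Th0, a low array for Pdcd1lg2. The CD8 T cell and NK cell sum was higher in Th17 and Treg, as Pdcd1lg2 was. The largest values in this sum were Cd8b1 (83.5) and Klrk1 (32.2) in Th17, and Gzma (109) and Prf1 (56.0) in Treg, where Cd8b1 was lowest (51.7). On its brightest probe set Prf1 read 12.0 in Th0 and 24.5 in Th17, and 14.3 in exFoxp3Th17 and 56.0 in Treg. Klrk1 read 2.0, 32.2, 2.4 and 14.1 on the same arrays in the same order. The part of such cells in the Pdcd1lg2 difference was not tested.

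Cd274, the neighbour of Pdcd1lg2 in the genome, encodes the other PD-1 ligand. Its probe set (1419714_at) read 35.5 in Th0 and 47.0 in Th17, and 30.1 in exFoxp3Th17 and 58.0 in Treg. Treg and Th17 again had the largest readings, but no pair of arrays differed by 2-fold, so they were not separated from the others. The widest gap, exFoxp3Th17 below Treg, was 1.93-fold as deposited. It passed 2-fold with quantile normalization (log2 ratio -1.07) and with equal medians (log2 ratio -1.04).

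Of these neighbouring genes on chromosome 19, Pdcd1lg2 was called in all 4 comparisons and Cd274 in none. Their upstream windows are set side by side for that reason. Both are the 250 bases before the start on the plus strand of GRCm38.p6, chr19:29367188-29367437 for Cd274 and chr19:29410669-29410918 for Pdcd1lg2, with NFAT core matches in capitals.
Cd274: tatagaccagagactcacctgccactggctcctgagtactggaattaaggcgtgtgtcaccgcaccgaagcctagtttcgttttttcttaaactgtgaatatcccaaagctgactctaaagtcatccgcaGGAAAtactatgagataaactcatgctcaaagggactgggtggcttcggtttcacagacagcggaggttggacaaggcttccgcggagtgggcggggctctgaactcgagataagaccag
Pdcd1lg2: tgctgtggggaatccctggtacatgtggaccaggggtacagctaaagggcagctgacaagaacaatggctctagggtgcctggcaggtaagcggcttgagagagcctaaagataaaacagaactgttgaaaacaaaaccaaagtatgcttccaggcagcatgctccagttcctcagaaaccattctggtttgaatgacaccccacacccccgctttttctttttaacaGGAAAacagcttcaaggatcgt
Each window held 1 GGAAA on the plus strand, beginning 120 bases upstream of the start in Cd274 and 22 bases upstream in Pdcd1lg2. Neither held the AP-1 motif. The windows had a similar base composition, with 50.4% G or C for Cd274 and 48.4% for Pdcd1lg2.

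Havcr2, which encodes the inhibitory receptor TIM-3 of Th1 and regulatory T cells, was above the floor on a single array. Its probe set (1451584_at) read 3.3 in Th0 and 6.2 in Th17, and 1.4 in exFoxp3Th17 and 31.1 in Treg. Treg was at least 2.57-fold higher than each of the other 3 arrays, which have no order among themselves below the floor. With 2 times the floor this call was lost in both comparisons that include Treg. Some markers of other cells were also high on the Treg array, with Gzma at 109 and below the floor elsewhere. Prf1 read 56.0 against at most 24.5 on its brightest probe set, but another was not higher in Treg than in Th0. Cd79b read 55.6 against at most 19.3, and no other measured B cell marker was above the floor in Treg. Cd8b1 was instead lowest in Treg (51.7 against 64.6 to 83.5), and Klrk1 was higher in Th17 (32.2) than in Treg (14.1). The part of such cells in the Havcr2 difference was not tested. The window upstream of Havcr2 is shown because it was the only one with the AP-1 motif, which is in capitals, among the windows found for 6 of the 10 members (Cd28, Icos, Lag3 and Cd226 were not searched). It lies at chr11:46454681-46454930 on the plus strand of GRCm38.p6, and the match, TGATTCA, began 200 bases upstream of the start.
Havcr2: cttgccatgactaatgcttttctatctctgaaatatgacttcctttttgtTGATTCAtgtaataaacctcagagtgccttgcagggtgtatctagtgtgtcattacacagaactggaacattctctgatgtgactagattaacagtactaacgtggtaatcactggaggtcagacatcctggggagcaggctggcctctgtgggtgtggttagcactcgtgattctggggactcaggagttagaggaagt
The NFAT core had no match in this window. The window was picked for its AP-1 match, which 6.75% of all promoter windows of this length hold, and a match of letters is not a site of binding.

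Lag3, whose product binds MHC class II and lies beside Cd4 in the genome, was below the floor in Th0 and above it on the other arrays. Its probe set (1449911_at) read 1.7 in Th0 and 27.6 in Th17, and 32.8 in exFoxp3Th17 and 21.4 in Treg. Th17 was at least 2.28-fold higher than Th0 and exFoxp3Th17 at least 2.71-fold, while the bound for Treg was 1.77-fold. The 3 arrays above the floor were within 1.54-fold of each other. Because Th0 lay below the floor, the fold was set by the floor: with 0.5 times the floor Treg was also called higher than Th0, and with 2 times the floor Th17 no longer was.

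Cd160 and Cd226 gave little signal. The brightest of 4 Cd160 probe sets (1420396_at) read 17.6 in Th0 and 10.0 in Th17, and 22.8 in exFoxp3Th17 and 15.4 in Treg, and the other 3 were below the floor on all arrays. CD160 binds HVEM, the product of Tnfrsf14. exFoxp3Th17 was at least 1.89-fold higher than Th17, which is not called. The single Cd226 probe set (1445388_at) read 18.4 in Th0 and 10.0, 10.8 and 10.7 in Th17, exFoxp3Th17 and Treg, so Th0 alone was above the floor, by at least 1.52-fold. Neither gene can be ordered beyond this at such signals.

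**Figure D2:**
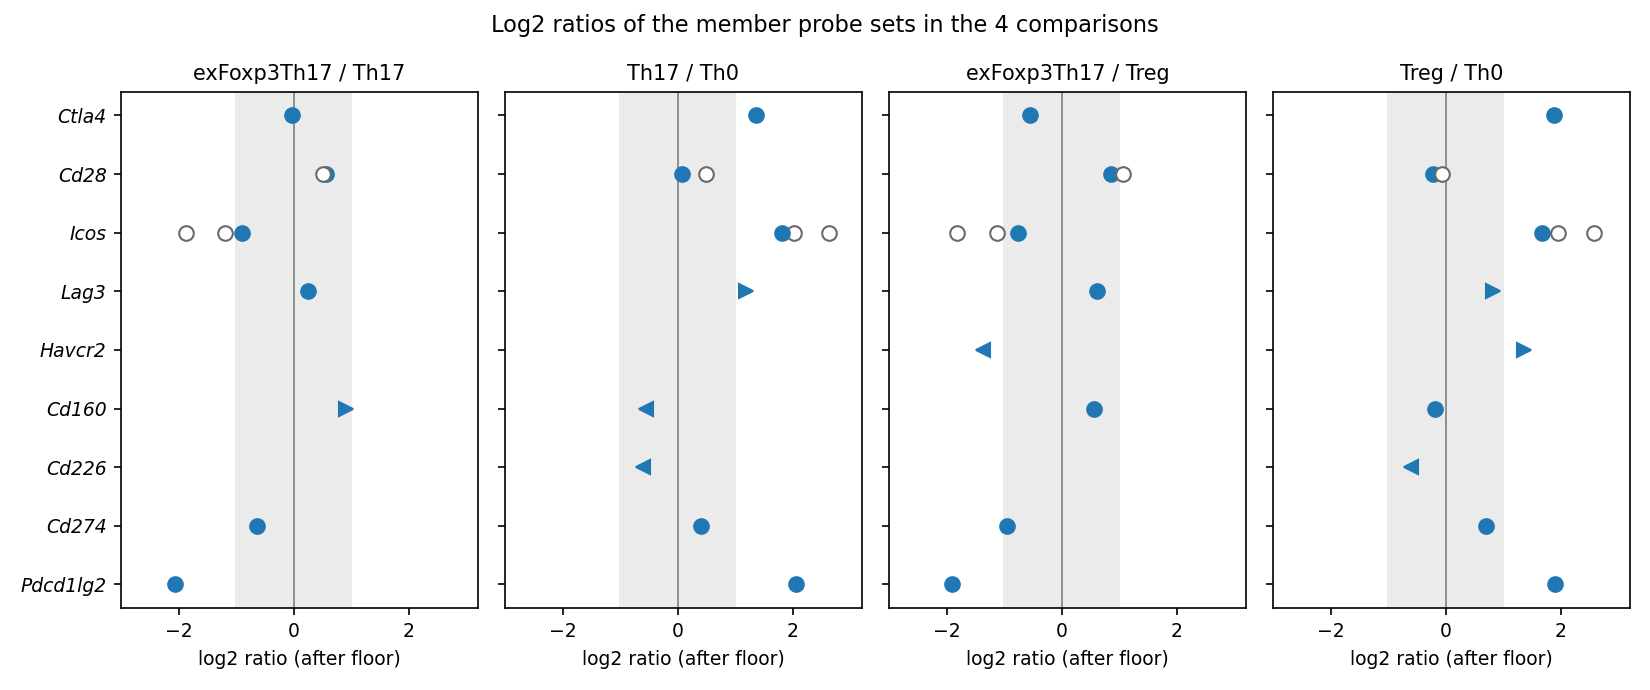
Log2 ratio of each member probe set (x axis, after the floor) in the 4 comparisons, 1 panel each; filled symbols are the brightest probe set of a gene, open symbols the others, triangles point the way of a bound, pairs below the floor are left out, and the grey band is within 2-fold. Pdcd1lg2 lies outside the band in all 4 panels, and 2 of 3 Icos probe sets lie left of it in both panels with exFoxp3Th17 first.

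Read by comparison, every member called against Th0 was higher than in Th0. In Th17 against Th0, which share naive precursors and differ in culture and IL-17 gate, 4 of 9 measured members were higher (Pdcd1lg2, Icos, Ctla4 and Lag3) and none lower. Of all 11769 genes above the floor on any array, 8.22% were called higher, 6.88% lower and 15.1% either way. The median log2 ratio of the 9 members was 0.40, and that of all these genes was -0.02. In Treg against Th0, which differ in origin, culture and Foxp3 gate, 4 of 9 were higher (Pdcd1lg2, Ctla4, Icos and Havcr2) and none lower, against 5.56% of all genes called higher, 4.95% lower and 10.5% either way. The member median was 0.82 and that of all genes -0.01. These comparisons share the Th0 array, so a low value there enters both.

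Between Th17 cells of Foxp3+ and of naive origin, 1 of 9 members was lower, Pdcd1lg2, and none higher, against 7.27% of all genes called lower, 7.48% higher and 14.8% in either direction. That share, 11.1%, is near the background. The member median was 0.00 and that of all genes 0.03. In exFoxp3Th17 against Treg, the same origin under different culture and gate, 2 of 9 were lower, Pdcd1lg2 and Havcr2, and none higher. Of all genes, 9.94% were lower, 11.3% higher and 21.2% called either way, so 22.2% of members called is again near the background. The member median was -0.54 and that of all genes 0.02. With 9 genes, each gene is 11.1% of the list, and Havcr2 and Cd226 enter several of these medians at 0 because both arrays lie below the floor.

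The comparisons Th17 with Th0 and exFoxp3Th17 with Treg share no array, and each sets a Th17 culture against another culture of cells of the same origin. Pdcd1lg2 was higher in the Th17 culture among naive-derived cells (log2 ratio 2.06) and lower in it among Foxp3-derived cells (log2 ratio -1.91). Icos went the same way, at 2.03 and -1.12 on probe set 1421930_at and at 2.64 and -1.82 on probe set 1421931_at, while its brightest probe set read 1.81 and -0.76. Of all 11769 genes, 160 (1.36%) were called higher in the first and lower in the second. This count takes the brightest probe set of each gene, so Pdcd1lg2 was the only member among them and Icos was not. The other cultures are not alike, since Treg cells received IL-2 and kept Foxp3, and the difference of these differences was not tested.

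**Figure D3:**
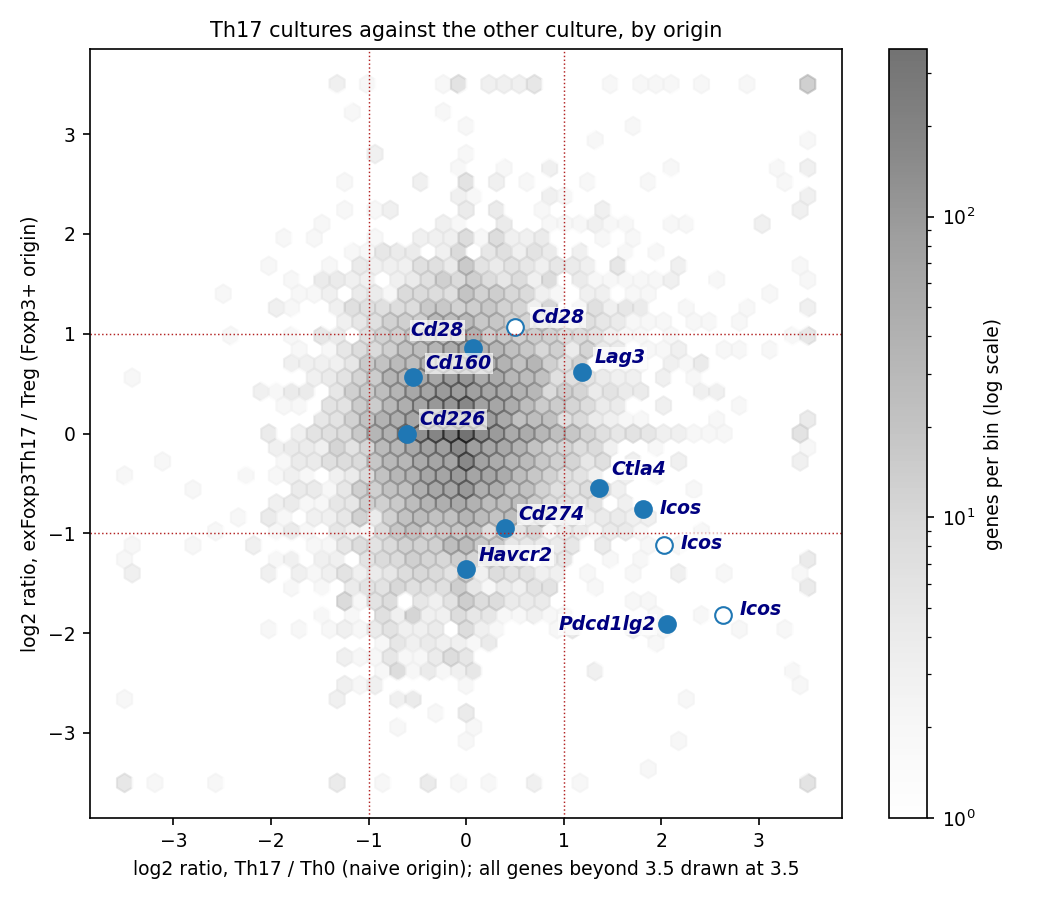
Log2 ratio of Th17 over Th0 (x axis) against that of exFoxp3Th17 over Treg (y axis) for all genes above the floor on any array (grey bins, values beyond the axis limit drawn at it) and for member probe sets with an array above the floor in either comparison (blue, filled for the brightest of a gene); dotted lines mark 2-fold. Pdcd1lg2 and 2 Icos probe sets lie in the lower right corner, higher in Th17 than Th0 and lower in exFoxp3Th17 than Treg.

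For each called member, the 3 genes with the most similar pattern were taken by the root mean square distance between log2 signals centred over the 4 arrays, among 8450 or 8451 other genes reaching 4 times the floor. For Pdcd1lg2 the nearest was Cish (distance 0.11), a feedback inhibitor of IL-2 signalling induced through STAT5, at 420.5 in Th0 and 1460 in Th17, and 353.2 in exFoxp3Th17 and 1366 in Treg. Rapgef5 (0.12) and Rab26 (0.13) followed. For Icos these were Afdn (0.05), Erlin1 (0.08) and Iqcb1 (0.10), for Ctla4 Tmem159 (0.08), Trim16 (0.12) and Glrx (0.12), for Lag3 Stat3 (0.05), Traf4 (0.06) and Snx13 (0.07), and for Havcr2 F2r (0.06), Lrrc8c (0.08) and Zbp1 (0.09). Over 4 arrays many genes resemble any pattern, and for Lag3 and Havcr2 the pattern is partly the floor. These distances use the brightest probe set of each gene. For Stat3, 1 of 3 other probe sets above the floor went the same way in Th17 against Th0, and likewise 1 of 3 in Treg against Th0. Among the called members themselves, Ctla4 and Icos were the closest pair (0.33) and Lag3 and Pdcd1lg2 the farthest (0.99).

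Ligands and counter-receptors of these receptors had their largest difference in Cd86, the ligand shared by CD28 and CTLA-4. Cd86 read 18.0 in Th0 and 589.3 in Th17, and 20.0 in exFoxp3Th17 and 64.1 in Treg, with Th17 32.7-fold above Th0 and exFoxp3Th17 29.4-fold below Th17; a further probe set of Cd86 also passed 2-fold in the same direction each time. Thus Cd86, like Pdcd1lg2, was low in Th0 and exFoxp3Th17, but unlike Pdcd1lg2 it was far lower in Treg than in Th17. Cd80, the other shared ligand, read 32.8 in Th0 and 29.7 in Th17, and 18.7 in exFoxp3Th17 and 89.2 in Treg, 4.77-fold lower in exFoxp3Th17 than in Treg. Pvr, which encodes CD155, the ligand of CD226 and TIGIT, was 2.79-fold lower in exFoxp3Th17 than in Th17 (53.2 against 148.3), but the 5 other Pvr probe sets that lay above the floor all went the same way by less than 2-fold. Going the other way, Nectin3, which encodes a nectin adhesion protein, was 4.29-fold higher in exFoxp3Th17 than in Th17 (97.3 against 22.7), and 3 further Nectin3 probe sets that reached the floor went the same way, 1 of them by over 2-fold. Tnfrsf14 was 3.49-fold higher (46.4 against 13.3).

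Of 11 measured ligands above the floor on any array, 3 were higher and none lower in Th17 than in Th0, and 4 were higher and none lower in Treg than in Th0. Against Th17, the exFoxp3Th17 array had 2 ligands higher and 2 lower, and against Treg it had 2 higher and 4 lower. The shares called either way were 27.3%, 36.4%, 36.4% and 54.5% in this order, against 15.1%, 10.5%, 14.8% and 21.2% of all genes. Their median log2 ratios were 0.00 in Th17 against Th0, 0.88 in Treg against Th0, 0.00 in exFoxp3Th17 against Th17 and -0.47 in exFoxp3Th17 against Treg.

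Other costimulatory and inhibitory receptors outside the TNF receptor family did not share one order of arrays. Of 15 above the floor, exFoxp3Th17 against Th17 had 3 higher and 1 lower, Th17 against Th0 had 1 higher and 2 lower, exFoxp3Th17 against Treg had 3 each way, and Treg against Th0 had 3 higher and 2 lower. The shares called were 26.7%, 20.0%, 40.0% and 33.3% in this order, against 14.8%, 15.1%, 21.2% and 10.5% of all genes. Their medians were 0.47, -0.23, 0.11 and -0.16 in the same order. Pdcd1, the receptor of both PD-1 ligands, read 25.5 in Th0 and 27.8 in Th17, and 105.8 in exFoxp3Th17 and 89.7 in Treg, so it was high in the cells of Foxp3+ origin. In exFoxp3Th17 a high Pdcd1 signal therefore stood beside a Pdcd1lg2 signal near the floor. Cd96, a further receptor of CD155, read 432.5 in Th0 and 162.2 in Th17, and 1029 in exFoxp3Th17 and 167.0 in Treg, 6.34-fold higher in exFoxp3Th17 than in Th17. Slamf1, a self-binding receptor of activated T cells, read 156.0, 452.1, 86.7 and 232.9 on these arrays in this order, with exFoxp3Th17 5.22-fold below Th17 and its 2 other probe sets also past 2-fold.

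Of 22 genes above the floor for signalling below these receptors and for their trafficking, 3 were called between exFoxp3Th17 and Th17 (13.6%, against 14.8% of all genes), 2 between Th17 and Th0 (9.09% against 15.1%), 6 between exFoxp3Th17 and Treg (27.3% against 21.2%), and 2 between Treg and Th0 (9.09% against 10.5%). Their medians were 0.19, -0.07, -0.06 and -0.01 in the same order, close to those of all genes. The exception in size was Trat1, whose product TRIM aids transport of CTLA-4 to the cell surface, with 993.6 in Th0 and 23.9 in Th17, and 48.2 in exFoxp3Th17 and 876.2 in Treg. Both Th17 cultures were low, although the Ctla4 signal was not. Lrba, whose product protects CTLA-4 from lysosomal breakdown, was 2.38-fold higher in Treg than in Th0 (410.0 against 172.6), with a further Lrba probe set within 2-fold. Cmtm6, which stabilises PD-L1, was 2.41-fold lower in exFoxp3Th17 than in Th17 (418.5 against 1008).

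Of 19 transcription factors and RNA-binding proteins known to act on genes of the members and above the floor, 21.1% to 52.6% were called in a comparison, against 10.5% to 21.2% of all genes. In this list 10 were higher and none lower in Treg than in Th0, including Foxp3 itself, by which the cells were sorted. In Th17 against Th0, 6 were higher and 3 lower, in exFoxp3Th17 against Th17, 1 was higher and 3 lower, and in exFoxp3Th17 against Treg, 1 was higher and 8 lower. The medians were 1.03, 0.15, 0.00 and -0.37 in that order. Irf4 read 109.5 in Th0 and 1055 in Th17, and 80.3 in exFoxp3Th17 and 372.6 in Treg. Its low arrays were those of Pdcd1lg2, but its Th17 signal was more than 2-fold above that of Treg. Nfil3, a factor that promotes Havcr2 expression, read 22.1, 217.3, 14.3 and 329.1 in the same order of arrays. Prdm1 read 422.3 in Treg, 61.9 in Th0 and below the floor in both Th17 cultures. Tbx21 read 86.8 in Treg and below the floor elsewhere. Maf, which with Prdm1 is known to drive inhibitory receptor genes, read 17.2 in Th0 and 3072 in Th17, and 2219 in exFoxp3Th17 and 1351 in Treg. Th0 was thus its low array. Prdm1 had another order, above the floor in Th0 and below it in both Th17 cultures. The part of any of these factors in the member signals was not tested. Zc3h12a, which encodes Regnase-1, an RNase that degrades Icos mRNA, was 2.94-fold higher in Th17 than in Th0 and 3.07-fold higher in exFoxp3Th17 than in Treg, though a further, dimmer probe set went the same way and did not reach 2-fold once values below the floor were set to it. These lists were chosen with earlier results of these data known, and nothing is read from their patterns beyond the values.

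**Figure D4:**
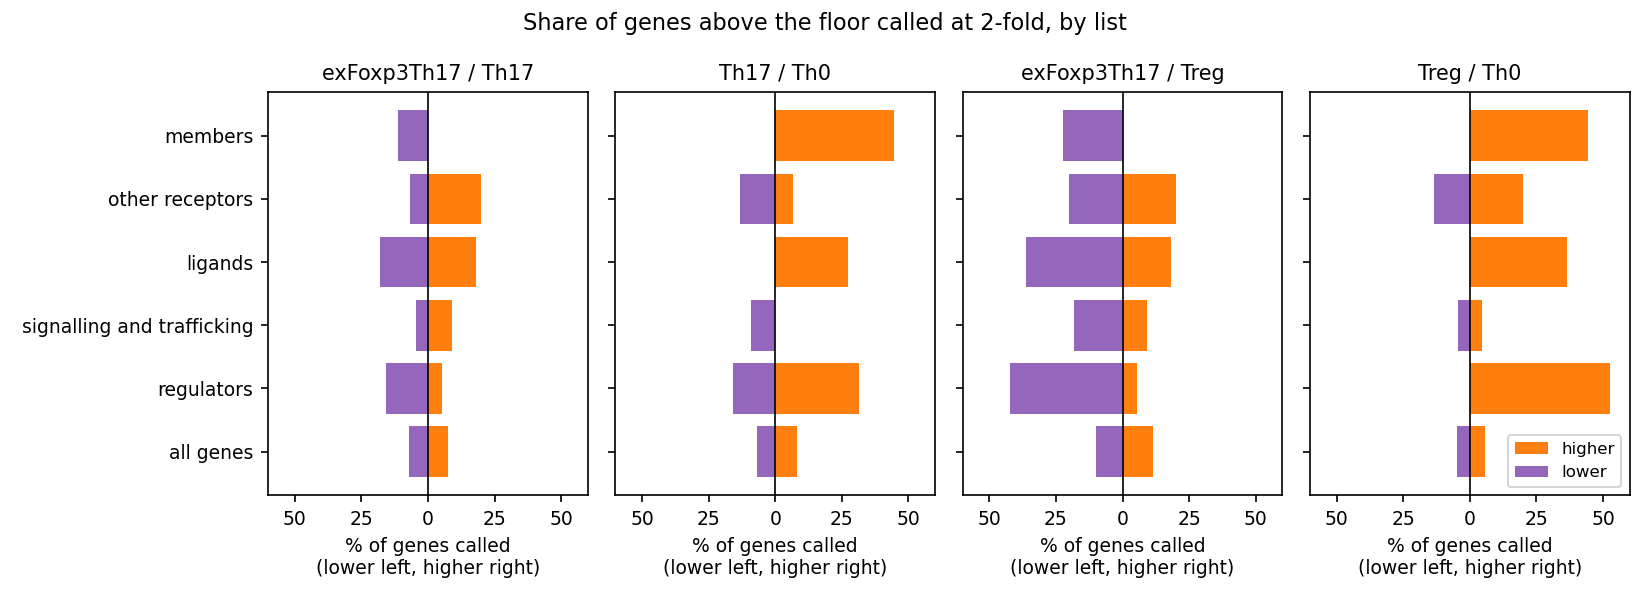
Percent of the genes above the floor on any array that were called higher (orange, to the right) or lower (purple, to the left) in each of the 4 comparisons, for the members, the 4 related lists and all 11769 genes. Against Th0, 44.4% of the members were called in each case, all higher; with exFoxp3Th17 first, 1 and 2 members were called (11.1% and 22.2%), near the 14.8% and 21.2% of all genes.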

How the data were processed

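Total RNA (1 µg per sample) was labelled with biotin and hybridised to Affymetrix arrays, per the labels' protocols. The authors deposited signal intensities on a linear scale. The submitters' processing notes name MAS5, without a version, as the tool. This method summarises the probes of each probe set and scales every array, and the mean intensity without the lowest and highest 2% of probe sets was 100 on each array, so no further scaling was applied. Detection calls were not used here.

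Gene names came from the platform annotation, with symbols updated through the gene identifier in the RefSeq table (GRCm38.p6). Of 45037 non-control probe sets, 34945 have 1 gene symbol, 932 several and 9160 none; those with several named no gene. Each of 18193 genes was represented by the brightest of its single-gene probe sets (mean log2 signal over the arrays). Values below the floor of 12.1 were set to it before log2. With 1 array per group no test was possible, and the number of arrays limits the precision. The calls were tested on simulated data before use. Alternatives were 0.5 and 2 times the floor, the floor as a pseudocount, quantile normalization, equal medians, averaging all probe sets of a gene, a 3-fold threshold and a requirement that both arrays lie above the floor.

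The members, the lists (112 of 123 genes have a single-gene probe set) and the tests were chosen with earlier results of these data known. The rule named all members and their probe sets, up to 4 called genes per list, direction and comparison with the largest ratio, Foxp3 and Il17a, defining cell type markers, and the 3 nearest genes by pattern; it covers more genes than are named. Named outside it, with their values seen, were Xist and Eif2s3y. Promoter sequences are from RefSeq (GRCm38.p6), which has a window for 6 of the 10 members. Work was done in Python 3.11.15 with numpy 2.4.6 and pandas 2.3.3.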

Additional observations from a re-analysis of the deposited data

Results flagged for a closer look

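Pdcd1lg2 and Icos differed between Th17 cultures and the other culture in opposite directions in cells of naive and of Foxp3+ origin. The Pdcd1lg2 probe set had a log2 ratio of 2.06 in Th17 against Th0 and of -1.91 in exFoxp3Th17 against Treg. For Icos, probe set 1421930_at had log2 ratios of 2.03 and -1.12 in these comparisons and probe set 1421931_at had 2.64 and -1.82, whereas the brightest Icos probe set stayed within 2-fold in the second. Each ratio comes from 2 single arrays, so the difference between origins was not tested. The exFoxp3Th17 array also stood apart in sex-linked transcripts, and Treg cells received IL-2. The parts of these and of origin cannot be told apart.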

How the results depend on the processing

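Each count of called members was recomputed under 8 alternatives. For exFoxp3Th17 against Th17, where 1 member was called, 2 were called with 0.5 times the floor (Cd160 was added, as higher) and 2 with the mean of probe sets (Icos was added, as lower). For Th17 against Th0, 4 became 2 at a 3-fold threshold. For exFoxp3Th17 against Treg, 2 became 1 with 2 times the floor, at 3-fold and when both arrays had to lie above the floor; Havcr2 was lost each time. The other counts stayed within 1.5 times the value reported, and no member called in a comparison changed direction. Pdcd1lg2 kept its call in all 4 comparisons under all 8 alternatives, with log2 ratios of 1.20 to 2.21 in Th17 against Th0, 1.04 to 2.09 in Treg against Th0, -2.14 to -1.20 in exFoxp3Th17 against Th17 and -2.02 to -1.04 in exFoxp3Th17 against Treg. Of 288 recomputed member ratios, 271 stayed on the same side of the threshold, 7 moved past it and 10 fell short of it. At a 3-fold threshold the calls over all genes were 645, 750, 1094 and 470 in the order exFoxp3Th17 against Th17, Th17 against Th0, exFoxp3Th17 against Treg and Treg against Th0, against 1736, 1778, 2498 and 1236 at 2-fold. With 0.5 times the floor, Treg against Th0 had 1857 calls. Neither scaling alternative moved the median of all genes by 0.1 in log2 units. Members near the floor (Lag3, Havcr2, Cd160, Cd226 and Pdcd1lg2) are limited by signal over background. No paired analysis was possible because each group has 1 array.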
